A study of Mus musculus with 2 samples.

Results

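The genes described here are 10 basement membrane laminin, linker and integrin genes of skeletal muscle. They are the laminin α chains Lama2, Lama4 and Lama5, the laminin β chains Lamb1 and Lamb2, the laminin γ chain Lamc1, the linker Nid1, the proteoglycan Hspg2, and the integrin subunits Itga7 and Itgb1. Members were taken by symbol from the gene tables of both libraries, and all 10 were found among 55536 annotated genes. The tissue was gastrocnemius, the large calf muscle, from which total RNA was sequenced. The animals are labelled as adult females of 8 to 10 months from a cross of 5xFAD, a line whose human transgenes model Alzheimer's disease, with CAST, a wild-derived inbred strain. The 2 libraries are biological replicates 1 and 2 of this 1 group, each made from 300 ng of RNA with ERCC spike-ins and a directional kit, and there is no other genotype, treatment or tissue to compare them with. The labels give each library its own tissue sample and both libraries the same donor identifier, so whether the tissue came from separate mice is not settled by them, and the spread between libraries may be technical. The human transgenes are not in the mouse annotation, and reads from CAST alleles were assigned to the mm10 reference.

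A basement membrane is a thin sheet of extracellular matrix that wraps every muscle fibre, capillary and Schwann cell. Its laminins are trimers of an α, a β and a γ chain that form a network at the cell surface, where nidogen joins them to collagen IV and perlecan adds a heparan sulfate proteoglycan. Integrin α7β1 and dystroglycan hold the muscle fibre to that network, and loss of the laminin α2 chain or of integrin α7 causes muscle disease in mice and humans.

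Both integrin genes are spliced into forms that differ in the cytoplasmic tail or in the extracellular ligand-binding part, and the exons that tell the forms apart are shown because later shares of RNA turn on them. The sequences are from the GENCODE M21 transcripts on mm10, with coordinates of the capital letters and all on the plus strand. Among the 4 annotated Itgb1 transcripts, the β1D tail, known from striated muscle, is on Itgb1-204 (exon 3 of 4, chr8:128726983-128727054). The widely expressed β1A tail is on Itgb1-201 (exon 16 of 16, chr8:128732023-128732085). Capitals mark the coding bases of the alternative exon without the stop codon, and small letters the last bases of the exon that both share.

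Itgb1-204 extra exon: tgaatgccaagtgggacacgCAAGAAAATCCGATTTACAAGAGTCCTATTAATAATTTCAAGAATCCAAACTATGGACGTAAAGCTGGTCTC
Itgb1-201 last coding exon: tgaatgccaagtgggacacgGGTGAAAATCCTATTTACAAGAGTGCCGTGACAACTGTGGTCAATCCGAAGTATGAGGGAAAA

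These stretches hold 72 coding bases in Itgb1-204 and 63 in Itgb1-201. Aligned to each other they had 42 identical bases over 72 columns (58.3%).

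For Itga7, the α7A tail is on Itga7-204, which has an exon of 113 bases (exon 3 of 4, chr10:128956611-128956723) that Itga7-201 and Itga7-202, with the α7B tail, skip. Capitals mark that exon, and small letters the ends of the exons on either side that all of them share. The junction line shows those ends joined, as in Itga7-201.

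Itga7-204 extra exon: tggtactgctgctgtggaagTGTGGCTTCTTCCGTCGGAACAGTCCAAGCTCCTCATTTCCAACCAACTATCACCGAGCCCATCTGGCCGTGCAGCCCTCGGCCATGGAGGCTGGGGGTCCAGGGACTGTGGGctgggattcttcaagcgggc
Itga7-201 junction: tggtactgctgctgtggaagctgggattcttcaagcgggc

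Because 113 is not a multiple of the codon length, the last exon is read in another frame after it. It holds 58 coding bases in Itga7-204 and 228 in Itga7-201 and Itga7-202.

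The extracellular X exons of Itga7 are mutually exclusive in the annotation. Itga7-201 carries the X2 exon (chr10:128941822-128941941) and Itga7-202 the X1 exon (chr10:128941445-128941576), each as exon 5 of 25. Capitals mark the exon that each transcript has for itself.

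Itga7-201 own exon: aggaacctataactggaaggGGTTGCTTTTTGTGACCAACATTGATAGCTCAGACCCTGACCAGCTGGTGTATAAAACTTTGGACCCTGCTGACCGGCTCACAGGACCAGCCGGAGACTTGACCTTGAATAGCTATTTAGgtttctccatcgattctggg
Itga7-202 own exon: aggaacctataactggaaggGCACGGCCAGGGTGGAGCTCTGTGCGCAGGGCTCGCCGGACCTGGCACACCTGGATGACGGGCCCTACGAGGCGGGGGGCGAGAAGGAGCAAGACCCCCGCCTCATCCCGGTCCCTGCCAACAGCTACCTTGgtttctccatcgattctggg

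The X2 exon has 120 bases and the X1 exon 132. They had 61 identical bases over 136 aligned columns (44.9%).

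Library 1 held 35594289 expected counts, of which 0.479% were ERCC spike-ins. Library 2 had 34541905, with 0.504% in spike-ins. Protein-coding genes at a TPM (a level corrected for transcript length and set to a fixed total per library) of at least 1 in both libraries numbered 9806 of 22028, which is 44.5%. All 10 member genes passed that level. The first quantifier is the pair of gene and transcript tables with expected counts, and the second is the other transcript table, which the deposited read-me lists as derived from the read file. Levels are TPM of the first unless the second is named, and each mean is given with its SD over n = 2 libraries. Fibre markers fixed for the tissue (Acta1, Ckm and 5 others) were all present in both libraries, with summed levels of 45449 TPM in library 1 and 52436 TPM in library 2.

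The laminin α chains decide which receptors a laminin binds. Lama2 (ENSMUSG00000019899.16, chr10:26980036-27619758, minus strand) encodes the α2 chain of the muscle fibre and Schwann cell basement membrane. It had 15.09 TPM in library 1 and 13.67 TPM in library 2 (14.4 ± 1.00), from 2512 and 2126 expected counts. It was above the 2 other detected α chains in both libraries, with no overlap of the ranges.

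Lama5 (ENSMUSG00000015647.9, chr2:180176373-180225859, minus strand), an α chain of vessels, epithelia and the neuromuscular junction, had 5.82 TPM in library 1 and 6.10 TPM in library 2 (5.96 ± 0.198). Lama4 (ENSMUSG00000019846.11, chr10:38965515-39110188, plus strand), the α chain best known from capillaries, had 3.97 TPM in library 1 and 6.06 TPM in library 2 (5.02 ± 1.48). The ranges of Lama5 and Lama4 overlapped, and their order is not set by these libraries. Lama1, the α chain of early embryonic basement membranes, had 5 expected counts in library 1 and 0 in library 2, where 0 counts still allow 3 counts or 0.0869 CPM (counts relative to the library total). Lama3, a chain of epithelial anchoring laminins, had 0.41 TPM in library 1 and 0.32 TPM in library 2.

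The 5 α chain genes summed to 25.4 TPM in library 1 and 26.2 TPM in library 2. Lama2 held 59.3% of this sum in library 1 and 52.3% in library 2 (55.8 ± 5.00%). Lama5 held 22.9% in library 1 and 23.3% in library 2, and Lama4 held 15.6% in library 1 and 23.2% in library 2. Shares of a sum are tied, so with that of Lama5 within 1 percentage point, a lower Lama2 share goes with a higher Lama4 share. With the second quantifier Lama5 was less steady, at 20.1% in library 1 and 17.9% in library 2. Counted on full-length coding transcripts only (described later), Lama4 held 21.4% in library 1 and 23.6% in library 2.

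Among β chains the level was nearly all from Lamb2 (ENSMUSG00000052911.9, chr9:108479736-108490530, plus strand). Its β2 chain is best known as a protein of the neuromuscular junction, vessel walls and the kidney glomerulus. Lamb2 had 48.69 TPM in library 1 and 55.79 TPM in library 2 (52.2 ± 5.02), from 5103 and 5349 expected counts. Lamb1 (ENSMUSG00000002900.16, chr12:31265234-31329644, plus strand), whose β1 chain is the textbook partner of α2 along the muscle fibre, had 3.36 TPM in library 1 and 3.86 TPM in library 2 (3.61 ± 0.354). Lamb2 was 14.5 times as high as Lamb1 in library 1 and also 14.5 times in library 2. Counted on full-length coding transcripts only (described later), the ratio of the levels was 8.93 in library 1 and 9.49 in library 2. Lamb3, an epithelial β chain, had 0.82 TPM in library 1 and 0.53 TPM in library 2. Of the summed β chain level, Lamb2 held 92.4 ± 0.432%, Lamb1 6.38 ± 0.0416% and Lamb3 1.22 ± 0.474%.

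Lamc1 (ENSMUSG00000026478.14, chr1:153218922-153332786, minus strand) encodes γ1, the γ chain of most laminins. It had 19.00 TPM in library 1 and 18.41 TPM in library 2 (18.7 ± 0.417), and held 96.2 ± 0.0106% of the summed γ chain level. Lamc3, another γ chain, had 0.07 TPM in library 1 and 0.03 TPM in library 2. None of Lama1, Lama3, Lamb3 and Lamc3, laminin chain genes outside the member list, reached 1 TPM in either library.

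The linker Nid1 (ENSMUSG00000005397.8, chr13:13437551-13512269, plus strand), which encodes nidogen-1 and binds the laminin γ1 chain, had 10.08 TPM in library 1 and 9.74 TPM in library 2 (9.91 ± 0.240). The level of Lamc1 was 1.88 times that of Nid1 in library 1 and 1.89 times in library 2. Hspg2 (ENSMUSG00000028763.17, chr4:137468769-137570630, plus strand) encodes perlecan, which binds dystroglycan and anchors acetylcholinesterase at the neuromuscular junction. It had 15.69 TPM in library 1 and 16.89 TPM in library 2 (16.3 ± 0.849), and its 5697 and 5589 expected counts were the highest counts of the 10 genes. Its longest transcript, of 14187 bases, is also the longest among them.

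Itga7 (ENSMUSG00000025348.9, chr10:128933818-128958282, plus strand) encodes the laminin-binding integrin α chain of muscle fibres. It had 25.74 TPM in library 1 and 28.71 TPM in library 2 (27.2 ± 2.10). Among 18 integrin α genes it held 45.7% of the summed level in library 1 and 43.3% in library 2, ahead of Itgav, the α chain of vitronectin receptors, with 27.1 ± 1.29%. Itgb1 (ENSMUSG00000025809.15, chr8:128685654-128733200, plus strand) encodes the β1 chain that pairs with α7 and with many other α chains. It had 61.43 TPM in library 1 and 67.67 TPM in library 2 (64.6 ± 4.41). Among 8 integrin β genes it held 57.3% of the summed level in library 1 and 56.8% in library 2, ahead of Itgb5, the β5 chain that pairs with αv, with 34.0 ± 0.486%. Itgb1 was 2.39 times as high as Itga7 in library 1 and 2.36 times in library 2.

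**Figure D1:**
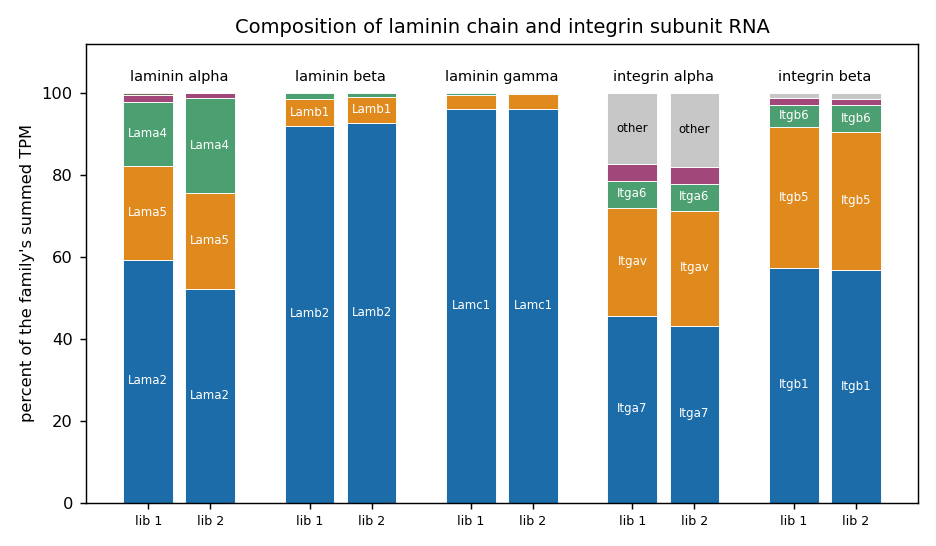
Each bar is 1 library (lib) and shows the percent of the summed TPM of a gene family held by each of its genes. In both libraries 1 gene holds over 90% of the laminin β and γ levels (Lamb2, 92.4%, and Lamc1, 96.2%), whereas the laminin α level is divided among Lama2, Lama5 and Lama4. Unlabelled segments are the next genes by level, and grey is all remaining integrin genes.

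From high to low, the levels ran Itgb1, Lamb2, Itga7, Lamc1, Hspg2, Lama2, Nid1, Lama5, Lama4 and Lamb1. Of the neighbours in this order, only Lama5 and Lama4 had ranges that overlapped between the 2 libraries. The gaps were small for Hspg2 over Lama2, where the lowest Hspg2 value was 15.69 and the highest Lama2 value 15.09 TPM, and for Lama4 over Lamb1, at 3.97 and 3.86 TPM. Itgb1 stood above 92.1% of the 9806 detected protein-coding genes, Lamb2 above 90.1%, and Lamb1 above 26.2%. The median level of those genes was 7.96 TPM, and 7 of the 10 member genes lay above it.

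**Figure D2:**
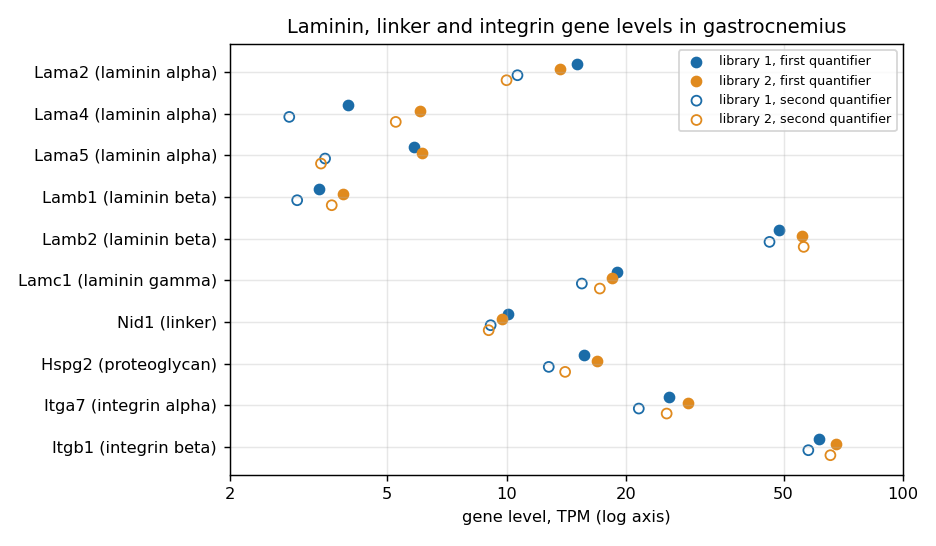
Gene levels in TPM on a log axis, library 1 in blue and library 2 in orange, with the first quantifier as filled and the second as open points. Itgb1 and Lamb2 lie highest with both quantifiers. The points of Lama4 spread most between libraries, at 3.97 and 6.06 TPM with the first quantifier and 2.83 and 5.25 TPM with the second.

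The second quantifier gave a lower gene level for 10 of 10 members, at 0.577 to 0.979 times the first (median 0.867). The share of all genes that were lower is not given here, so this is not read as a trait of the members. Outside them, the mean of Dag1 was also lower, at 73.5 against 79.7 TPM. That of Acta1 was higher, at 21345 against 17981 TPM. The lowest ratio was that of Lama5, with 3.48 TPM in library 1 and 3.40 TPM in library 2 by the second quantifier. Neighbours kept their order in both libraries, except for Lama5 and Lama4 and for Lama4 and Lamb1.

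Much of the gene-level TPM of these long genes came from shorter annotated transcripts, which held a smaller share of the expected counts. A gene's TPM is the sum over its transcripts, and a read counts for more TPM on a short transcript than on a long one. The 10 genes have 53 annotated transcripts, of which 13 are protein-coding and at least 90% as long as the gene's longest coding transcript. These are called long coding transcripts here, a class set after the transcript values had been seen. The class leaves out Itgb1-204 and Itga7-204, which carry the β1D and α7A exons shown above. They had 393.04 and 251.88 expected counts in library 1, and 371.88 and 271.82 in library 2. They held 82.3% to 99.4% of each gene's expected counts, but only 47.4% to 98.8% of its TPM, and more than 90% of TPM in both libraries for only 2 genes, Lamb1 and Nid1.

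Lama4 shows how few reads this can take. Its retained-intron transcript Lama4-207, 511 bases long, had 12.05 expected counts in library 1 and 22.72 in library 2. Those counts were 0.96 TPM in library 1 and 2.10 TPM in library 2, or 24.1% and 34.7% of the level of the gene. The second quantifier gave Lama4-207 far less in library 1, with 1.14 estimated counts, 0.104 TPM and 3.69% of the gene, but 15.5 estimated counts, 1.68 TPM and 32.1% in library 2. The long transcript Lama4-201 had 523.38 expected counts in library 1 and 523.93 in library 2, at 2.90 and 3.35 TPM (2.64 and 3.11 TPM with the second quantifier). With either quantifier, most of the difference in Lama4 TPM between the libraries was in transcripts other than the long coding one, while the share of Lama4-207 in library 1 depended on the quantifier.

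Lamb2-206, a fragment of 345 bases whose bases all lie in exons of Lamb2-201, had 94.14 expected counts and 12.64 TPM in library 1, and 103.49 expected counts and 16.06 TPM in library 2. The second quantifier gave Lamb2-206 a level of 0 in both libraries. It gave 15.7 TPM in library 1 and 21.6 TPM in library 2 to Lamb2-204, a fragment of 332 bases, to which the first gave 2.12 TPM in library 1 and 0 in library 2. The quantifiers thus differed over which Lamb2 fragment carried this level, while both put the long transcript Lamb2-201 first.

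Lama2 had the lowest share of TPM in its long transcript, Lama2-201, at 47.4% in library 1 and 51.9% in library 2. The retained-intron transcript Lama2-206, 643 bases long, had 2.80 TPM in library 1 and 2.29 TPM in library 2, or 17.7 ± 1.28% of the gene's TPM. The second quantifier gave Lama2-206 only 7.17 ± 0.922%, and put 19.1 ± 4.04% on Lama2-202, a retained-intron transcript at 0 with the first. Lama5-204, of 478 bases, had 15.35 and 13.96 expected counts, which were 1.34 TPM in library 1 and 1.40 TPM in library 2, and it was at 0 with the second quantifier. Lamc1-205, annotated as a target of nonsense-mediated decay and 762 bases long, had 3.44 TPM in library 1 and 2.88 TPM in library 2. The 2 long Hspg2 transcripts have 97 exons each, and all but 30 of the 14176 bases of Hspg2-203 lie in exons of Hspg2-201. Of the summed level of these 2 transcripts, Hspg2-203 held 46.5 ± 0.405%. Nid1-201 alone held 98.5 ± 0.392% of Nid1, and Lamb1-201 held 97.8 ± 0.176% of Lamb1.

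**Figure D3:**
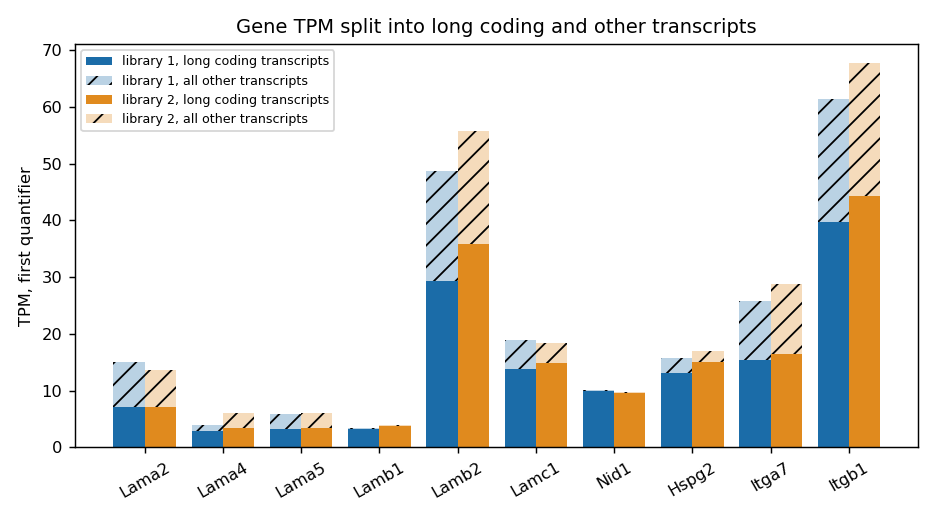
Bars give gene TPM by the first quantifier, library 1 in blue and library 2 in orange, with solid parts for long coding transcripts and hatched parts for all other transcripts of the gene. Nid1 and Lamb1 are almost all solid, whereas the hatched part is near the size of the solid part for Lama2 (15.09 and 13.67 TPM in all, of which 7.15 and 7.09 TPM are solid).

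On long coding transcripts the quantifiers were closer, with the second at 0.882 to 0.982 times the first over the 10 genes. Lama2 had 7.15 TPM in library 1 and 7.09 TPM in library 2, with 6.81 TPM and 7.17 TPM by the second quantifier. The order from high to low became Itgb1, Lamb2, Itga7, Lamc1, Hspg2, Nid1, Lama2, Lamb1, Lama5 and Lama4. Nid1 passed Lama2 on this scale, on which Itgb1 and Itga7 are without Itgb1-204 and Itga7-204. Lamb1, Lama5 and Lama4 had 3.53 ± 0.339, 3.33 ± 0.134 and 3.13 ± 0.318 TPM, with ranges that overlapped. They kept this order within each library with the first quantifier. The second put Lama5 (2.91 TPM) above Lamb1 (2.83 TPM) in library 1. The gaps were small, and the order of these genes is not taken as set.

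The balance of chains also depended on this choice. On gene TPM the γ chains summed to 0.776 of the α chains in library 1 and 0.732 in library 2. On long coding transcripts the γ sum was 1.05 times the α sum in library 1 and 1.08 times in library 2, and with the second quantifier 1.00 and 1.01 times. The β sum was 2.08 times the α sum in library 1 and 2.30 times in library 2 on gene TPM, and 2.45 and 2.82 times on long coding transcripts. RNA of the β chains, nearly all Lamb2, was thus above that of the α and of the γ chains on each of these scales, which says nothing of the amounts of protein.

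For each of the 10 genes the transcript with the highest share of TPM was the same with both quantifiers, and in each it was a long coding one. How often this holds over all genes is not given here, so it is not read as particular to the members. The median share of these leading transcripts was 62.5% in library 1 and 60.1% in library 2 with the first quantifier, and 71.8% in library 1 and 67.6% in library 2 with the second.

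The splice forms of the integrins were present in both libraries by both quantifiers. Itgb1-204, the only annotated carrier of the β1D exon shown above, had 393.04 expected counts in library 1 and 371.88 in library 2. It held 34.4% of Itgb1 TPM in library 1 and 34.2% in library 2 (34.3 ± 0.167%), and 37.0 ± 0.688% with the second quantifier. Itgb1-201, with the β1A tail, held 65.1 ± 0.602%. Of the expected counts, Itgb1-204 held 8.04% in library 1 and 7.88% in library 2.

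The α7A transcript Itga7-204 had 251.88 expected counts in library 1 and 271.82 in library 2. Its share of Itga7 TPM was 36.4% in library 1 and 40.7% in library 2, and 30.5% and 34.7% with the second quantifier. Both quantifiers gave the higher share in library 2. Within the long Itga7 transcripts, which carry the α7B tail, the X1 form Itga7-202 held 5.91% in library 1 and 11.1% in library 2, and 6.95% and 9.98% with the second quantifier. These shares rest on 108.89 expected counts for Itga7-202 in library 1 and 188.17 in library 2, against 1723.98 and 1505.32 for the X2 form Itga7-201. The X2 form was the higher in both libraries, and the share of X1 differed 1.88-fold between them.

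Itgb1-204 has 711 bases and Itga7-204 has 984, and the annotation marks both as incomplete at the start. Of Itgb1-204, 88.6% of the bases lie in exons of Itgb1-201, and of Itga7-204, 88.5% lie in exons of Itga7-201. Reads from those bases were divided between the entries by each quantifier, and a complete transcript with the β1D or α7A exon is not annotated. Itga7-204 lacks the X exons, so reads of those exons from RNA with the α7A tail cannot be assigned to it. The share of X1 is therefore not particular to RNA with the α7B tail. All these shares are those of the annotated entries and not measured shares of complete transcripts.

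**Figure D4:**
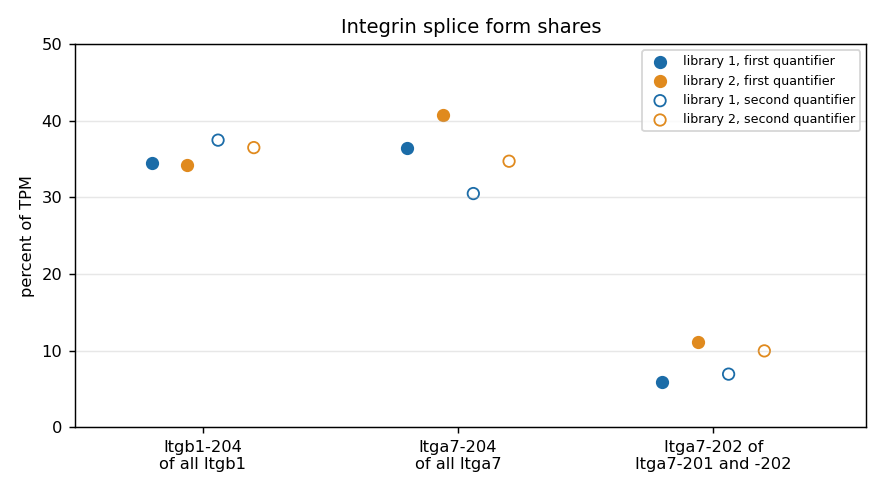
Percent of TPM held by Itgb1-204 (β1D tail), by Itga7-204 (α7A tail) and, within the long Itga7 transcripts, by Itga7-202 (X1 exon). Library 1 is blue and library 2 orange, with the first quantifier filled and the second open; the Itgb1-204 points lie within 34.2% to 37.5%, while both Itga7 shares are higher in library 2 with both quantifiers.

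Between the libraries the 10 genes differed to about the same degree as other genes. Ratios of library 1 over library 2 were taken on expected counts after TMM scaling (a trimmed mean of the log ratios of all genes), with a 95% interval for counting error only. Genes were called apart at a ratio of at least 2 in either direction, given a mean of at least 5 TPM and at least 100 counts in all. Of 6685 genes that passed the filter, 34 (0.509%) were apart. Of the 10 members 9 passed it, Lamb1 being too low, and 0 were apart. At an absolute log2 ratio of at least 0.5, 3.17% of all tested genes were called and again 0 of the members. With 1 group there is no test of a condition behind these counts. The median absolute log2 ratio was 0.091 over the 10 members and 0.093 over all tested genes.

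The log2 ratio was highest for Nid1, at 0.22 (95% interval 0.12 to 0.32), and for Lama2, at 0.21 (0.12 to 0.29). Library 1 had the higher value of both, and 16.3% of tested genes had a larger ratio in either direction than Nid1. Lamc1 had a log2 ratio of 0.088 (0.016 to 0.16). Lamb2 was higher in library 2, at -0.10 (-0.16 to -0.045). These 4 were the members whose interval excluded 0, which held for 36.0% of all tested genes: 18.0% were higher in library 1, and 18.1% were so in library 2. With spike-in totals as the scale, the interval excluded 0 for 7 members and for 40.6% of all tested genes. All 7 members were higher in library 1 and 0 in library 2, against 31.3% and 9.35% of all tested genes. Lamb2 then no longer excluded 0, and Lama5, Itga7, Itgb1 and Hspg2 did.

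With TMM scaling the other intervals included 0. Lama4 had a log2 ratio of -0.13 (-0.30 to 0.038) from its 545 counts in library 1 and 584 in library 2, although its deposited TPM differed 1.53-fold. Lama5 had 0.095 (-0.027 to 0.22), Itga7 0.061 (-0.028 to 0.15), Itgb1 0.019 (-0.040 to 0.077), Hspg2 -0.0053 (-0.059 to 0.048) and Lamb1 -0.020 (-0.19 to 0.15). The median over the 10 members was 0.040, and that over all tested genes was -0.0020, with the central 90% between -0.27 and 0.31. On deposited TPM the median was -0.12 for the members and -0.17 for all tested genes, and 7 of 10 members had the higher TPM in library 2. That shift is shared by the whole table, and relative to it the members' median was 0.050.

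**Figure D5:**
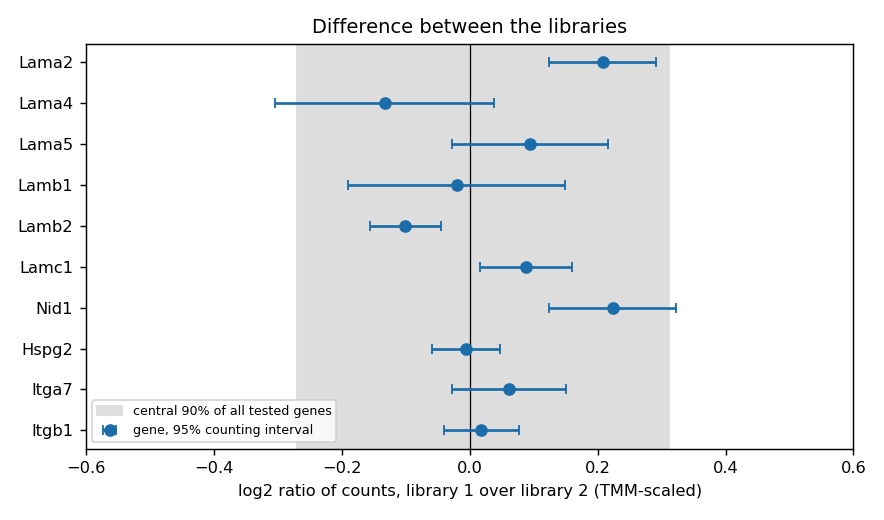
Log2 ratio of TMM-scaled counts, library 1 over library 2, for each gene, with bars for the 95% counting interval and a grey band for the central 90% of all tested genes (-0.27 to 0.31). All 10 points lie inside the band, with Nid1 (0.22) and Lama2 (0.21) farthest to the right and Lama4 (-0.13) farthest to the left.

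The other basement membrane genes set the members in their surroundings. Of 18 listed genes, 12 were at 1 TPM or more in both libraries, with a summed level of 132 TPM in library 1 and 153 TPM in library 2. The highest was Sparc, a collagen-binding matricellular protein, with 45.91 TPM in library 1 and 53.71 TPM in library 2. Smoc2, a relative of Sparc, had 22.03 TPM and 26.34 TPM, Col4a1, a chain of collagen IV, 15.25 TPM and 18.89 TPM, and Fbln2, a laminin- and nidogen-binding fibulin, 15.66 TPM and 14.48 TPM. Nid2, the paralog of Nid1, had 1.25 TPM in library 1 and 2.43 TPM in library 2, below Nid1 in both. Nid2 is named here as the paralog of a member.

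Of the 17 integrin α genes other than Itga7, 8 reached 1 TPM in both libraries and 9 were below it in both. After Itgav, with 14.76 TPM in library 1 and 18.60 TPM in library 2, came Itga6, another laminin-binding α chain, with 3.75 TPM and 4.38 TPM. Itga1, a collagen-binding chain, had 2.33 TPM and 2.61 TPM, and Itga4, a chain of leukocyte and other integrins, 2.01 TPM and 2.93 TPM. Itga7 was thus 6.86 times as high as Itga6 in library 1 and 6.55 times in library 2. Of the 7 other β genes, 3 reached 1 TPM in both libraries. Itgb5 had 36.85 TPM and 40.17 TPM, Itgb6, the partner of αv in epithelia, 5.89 TPM and 7.83 TPM, and Itgb4, the partner of α6 in hemidesmosomes, 1.65 TPM and 1.87 TPM. Itgb7, a leukocyte β chain, was below that level, at 0.61 TPM and 0.75 TPM.

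Of 18 listed genes for cytoplasmic partners of integrins, which bind the integrin tail or belong to the adhesion complex on it, 16 had RNA at 1 TPM or more in both libraries. Fermt2, which encodes kindlin-2 and activates β1 integrins, was the highest, with 90.32 TPM in library 1 and 103.3 TPM in library 2. Itgb1bp2, which encodes the muscle protein melusin and binds the β1 tail, had 39.92 TPM and 52.17 TPM. Pxn, encoding the adaptor paxillin, had 29.88 TPM and 33.27 TPM, and Tln2, the talin of mature muscle, 26.86 TPM and 26.13 TPM.

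All 9 listed laminin receptors outside the integrins were at 1 TPM or more in both libraries, with a summed level of 531 TPM in library 1 and 567 TPM in library 2. Rpsa, which encodes a ribosomal protein also described as a laminin receptor, had 212.5 TPM in library 1 and 216.7 TPM in library 2. Sgca, α-sarcoglycan of the dystrophin complex, had 112.9 TPM and 123.57 TPM, and Dag1, encoding dystroglycan, 75.80 TPM and 83.59 TPM. Dag1 was thus above Itga7 and Itgb1 in both libraries. The filter above was passed by 7 of the other basement membrane genes, 1 integrin α gene and 2 integrin β genes. It was also passed by 15 cytoplasmic partners and 9 laminin receptors. Of these, 0 were apart between the libraries, where 0.509% of all tested genes were.

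Laminins and integrins are made by several cell types of muscle, and in bulk RNA fewer cells of a type and less RNA per cell cannot be told apart. Marker levels are given for each such type, and their part in the member levels was not tested. All 8 endothelial markers were at 1 TPM or more in both libraries, with a sum of 52.0 TPM in library 1 and 57.2 TPM in library 2, led by Egfl7 and Pecam1. All 8 smooth muscle and pericyte markers were, with 92.2 TPM and 106 TPM, led by Rgs5 and Acta2, and all 8 fibroblast markers, with 182 TPM and 210 TPM, led by Dcn and Col1a2. Of 7 Schwann cell and perineurial markers 4 were, with sums of 34.4 TPM and 35.5 TPM, led by Mbp. Macrophage markers were at that level for 5 of 7, with 17.1 TPM and 15.0 TPM, led by Csf1r and C1qa. Satellite cell markers were for 2 of 5, with 13.5 TPM and 14.0 TPM, and these were Cdh15 and Chodl.

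As medians of the log2 ratio, library 1 over library 2, the endothelial markers had 0.11, smooth muscle and pericyte markers 0.016, fibroblast markers -0.087, fibre markers -0.038, 4 Schwann cell markers 0.19, 5 macrophage markers 0.47 and 2 satellite cell markers 0.18. Only markers with a mean of at least 1 TPM are in these medians. Satellite cell markers below it went the other way, with Pax7 at -0.86, Myf5 at -0.39 and Calcr, from 2 and 4 counts, at -1.0. So did the Schwann cell markers Egr2 (-0.35), Cldn19 (-0.068) and Sox10 (-0.033), while the macrophage markers Adgre1 (0.54) and Cd68 (0.52) did not. Fibroblast markers ranged from -0.49 for Col1a1 to 0.55 for Pi16. The members' median of 0.040 lay within the range of the list medians. Of the marker genes that passed the filter for the call, 0 were apart, where 0.509% of all tested genes were. None of the macrophage markers passed that filter.

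Genes that overlap a member in the genome had few reads. There were 13 such overlaps, and the highest counts were 13 in library 1 and 10 in library 2 for Gm36962 inside Lama2, and 11 and 10 for Gm38009 inside Lamc1. Mettl7b, on the strand opposite to Itga7, had 4 counts in library 1 and 0 in library 2.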

How the data were processed

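Total RNA libraries from 2 gastrocnemius samples of 1 group were analysed. The build and annotation were mm10 and GENCODE M21, per the deposited read-me. Names of the programs behind the tables were not given in the sources. Per the file headers, the authors deposited expected counts and TPM per gene and transcript and the percent of a gene's TPM per transcript (first quantifier), and estimated counts and TPM per transcript (second quantifier). A read that fits several entries is divided among them, so counts have decimals. TPM covers all entries of a table, so 1 abundant RNA moves every value.

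From these, levels, shares of a family and transcript shares were computed in Python 3.11.15 with pandas 2.3.3, and the recomputed percent per transcript was within 0.5 points of the deposited one for 53 of 53 transcripts. Second-quantifier gene levels are sums over transcripts. For ratios, expected counts were rounded to whole numbers and scaled by TMM factors (edgeR 4.0.16, R 4.3.3) from 11577 genes with at least 1 CPM in both libraries, with exact binomial (Clopper-Pearson) 95% intervals (scipy 1.17.1). The ratio step was tested on simulated data. Counting error is the only error that intervals and floors cover. With 35594289 expected counts in library 1 and 34541905 in library 2, a count of 0 allows up to 3 counts, which is 0.0843 CPM in library 1 and 0.0869 CPM in library 2. Entries that are neither gene nor spike-in were left out; their share of counts was 0.000621% in library 1 and 0.000738% in library 2.

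With 1 group of 2 libraries no test was made. The named genes are all members and laminin chains, the 4 highest of every other related list (6 lists in all), the 2 highest of 7 marker lists, and the 2 leading transcripts of each member, of which those that carry a difference are described; a few genes under this rule are not reported here. Nid2, Lama2-202, Lamb2-204, Itga7-202 and the markers given with single log2 ratios are outside that rule and were taken up after their values were seen. Members and lists were chosen with earlier results of these data known. Alternatives were the second quantifier, expected counts in place of TPM, DESeq2 1.42.0 size factors, spike-in, library-total and deposited-TPM scaling, TPM per total of nuclear protein-coding genes, other detection levels, no low-count filter, protein-coding transcripts only, each library alone and, added after seeing the data, long coding transcripts and the interval calls under 3 other scalings.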

Additional observations from a re-analysis of the deposited data

How the results depend on the processing

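All 10 members stayed detected with the second quantifier, at 0.5 TPM and in either library alone, and 8 did at 5 TPM. The share of the laminin α level held by Lama2 was 51.4% to 57.1% under the second quantifier, expected counts and long coding transcripts, against 55.8%, and 52.3% to 59.3% over the libraries taken singly. For Lamb2 it was 92.8% with the second quantifier and 92.1% to 92.7% over single libraries, but 89.1% on expected counts and 89.2% on long coding transcripts; these alternatives count short transcripts for less or not at all. The 4 members whose interval excluded 0 were the same with DESeq2 size factors and library totals, and 7 had such an interval with spike-in totals. The count of members apart was 0 under every scaling run. Their median log2 ratio was 0.028 to 0.10 under the other scalings, the second quantifier, no filter and long coding transcripts, and -0.12 on deposited TPM, where the median of all tested genes shifts to -0.17. Relative to the total of nuclear protein-coding genes, all 10 levels were 2.37 to 2.41 times as high as deposited. Ratios of single members moved beyond their counting interval for 8 of 10 on deposited TPM and for 3 of 10 on spike-in totals. The median leading transcript share of 61.3% was 69.7% with the second quantifier and 85.0% over protein-coding transcripts only, which leaves out retained introns by construction, and 60.1% to 62.5% over single libraries.

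No paired analysis was possible because there is 1 group of 2 libraries. Each SD has 2 values behind it. Depth limits Lama1, Lamc3 and the shares of Itga7-202 and Lama4-207, which rest on few reads. Levels of short annotated transcripts depended on the quantifier, and whether their reads come from separate RNAs was not tested.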

Other observations

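Egflam, which encodes pikachurin, a dystroglycan-binding matrix protein known from photoreceptor synapses, had 5.31 TPM in library 1 and 9.62 TPM in library 2 from 338 and 443 expected counts. The other chains of collagen IV were unevenly present. Col4a2, the usual partner of Col4a1, had 8.84 TPM in library 1 and 9.68 TPM in library 2, while Col4a3, Col4a4, Col4a5 and Col4a6, chains best known from the kidney, were all below 0.5 TPM in both libraries. Agrn, which encodes agrin, the organiser of the neuromuscular junction, had 1.89 TPM in library 1 and 1.94 TPM in library 2.

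Fermt1 and Fermt3, the kindlins best known from epithelia and from blood cells, stood far below Fermt2. Fermt1 had 0 counts in both libraries, which allows up to 0.0843 CPM in library 1 and 0.0869 CPM in library 2, and Fermt3 had 0.27 TPM in library 1 and 0.16 TPM in library 2. Itgad, an integrin α gene of leukocytes, also had 0 counts in both libraries. These genes were chosen after their values had been seen.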
